A study of Mus musculus with 16 samples.

Results

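Described here are the 8 genes G6pc, Fbp1, Pck1, Pcx, Pklr, Pfkl, Eno1 and Slc2a2, which code for enzymes of glucose synthesis and glucose breakdown in liver and for the liver's main glucose carrier. They are 8 of the 20660 genes that the array's probes could be named for, 13052 of which had a tested probe. They were chosen by name, and their probes were found by matching the accession that the scanner files give for each probe to a RefSeq gene symbol. Each gene had 1 probe, printed as 1 spot, so 8 of the 55681 probes on the array stood for the 8 genes, and all 8 were among the 29690 probes tested. The probes were A_51_P462385 for G6pc, A_51_P474701 for Fbp1, A_66_P121110 for Pck1, A_55_P2008599 for Pcx, A_51_P176042 for Pklr, A_51_P310896 for Pfkl, A_55_P1958097 for Eno1 and A_51_P185693 for Slc2a2.

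Livers were those of B6C3F1 mice (a hybrid strain used in toxicology), all female, that were 5 to 6 weeks old on arrival and were rested for at least 7 days before dosing. For 21 days furan mice received by gavage 8 mg/kg of furan dissolved in corn oil and control mice the oil alone, and all livers were taken 4 h after the last dose. Furan is a volatile compound that liver cytochrome P450 enzymes turn into a reactive metabolite. All livers were fixed in formalin and embedded in paraffin: corn oil livers 2, 3, 4 and 6 and furan livers 41, 42, 43 and 44 after 18 h in formalin, and corn oil livers 2, 4 and 6 and furan livers 41, 42, 43 and 44 after 3 weeks. The labels do not say whether a shared number is a shared animal. At 3 weeks 2 corn oil arrays were numbered 2.1 and 2.2. They were taken as corn oil liver 2, averaged and counted as 1 sample. This is an assumption, since the labels do not say whether they are 1 animal or 1 extract. RNA was taken from 1 section of 10 µm at 18 h and from 2 such sections at 3 weeks, so time in formalin and number of sections cannot be told apart, and the RNA integrity numbers were 1.3 to 2.4, which is low. On each of the 16 arrays Cy5 marked the liver RNA and Cy3 a pool of all samples, so every value below is a log2 ratio of liver over that pool. A value can be compared between samples for 1 probe, but not between probes.

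Glucose breakdown and glucose synthesis share most of their reactions and run in opposite directions. The steps that do not share an enzyme set the direction: phosphofructokinase (Pfkl is the liver form) and liver pyruvate kinase (Pklr) drive breakdown, while pyruvate carboxylase (Pcx), phosphoenolpyruvate carboxykinase (Pck1), fructose-1,6-bisphosphatase (Fbp1) and glucose-6-phosphatase (G6pc) drive synthesis. Enolase 1 (Eno1) works in both directions, and Slc2a2, also called GLUT2, moves glucose across the hepatocyte membrane. In liver, fasting hormones raise Pck1 and G6pc transcription and insulin lowers it, whereas feeding on carbohydrate raises Pklr transcription.

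All 8 probes were well above background in both channels on 16 of 16 arrays, and none was saturated or left out as an outlier spot. Between 32.3% and 55.2% of probes were well above background in the liver channel, with 44.3% to 50.1% in the 18 h corn oil arrays, 51.9% to 55.2% in the 18 h furan arrays, 32.3% to 36.7% in the 3-week corn oil arrays and 35.9% to 41.4% in the 3-week furan arrays. This measure did not overlap between the dose groups at 18 h or between the times, and its part in the differences below was not tested. All 8 hepatocyte marker genes measured were above background on every array. The number of samples, 3 or 4 per group, limits the precision of all comparisons.

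At 18 h in formalin, furan livers had less Pck1, Pklr and Pfkl RNA relative to the pool than corn oil livers. Pck1 was 2.30-fold lower, Pklr 2.33-fold lower and Pfkl 1.39-fold lower, and for each of these 3 genes the 4 furan livers lay below all 4 corn oil livers. Such separation was common: in 39.2% of all tested probes the groups did not overlap at 18 h, in one direction or the other. G6pc, Fbp1, Pcx, Eno1 and Slc2a2 did not pass the test. The fits were made with limma over all tested probes, with an adjusted p under 0.05 as the threshold. Of all tested probes 47.2% passed at 18 h, 20.4% higher and 26.8% lower, so 3 of 8 passing is no larger a share than among all probes. The size of the Pck1 and Pklr differences was less common: only 0.434% and 0.391% of all tested probes had a more negative difference. In bulk liver, fewer cells that express a gene and less RNA per cell cannot be told apart.

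Pck1 codes for the cytosolic enzyme that turns oxaloacetate into phosphoenolpyruvate, and its transcription is a classic target of cyclic AMP signalling. In corn oil livers 2, 3, 4 and 6 its log2 ratios to the pool were 0.34, 0.39, 0.34 and 0.72. In furan livers 41 to 44 they were -0.83, -0.53, -0.71 and -0.95. The groups were far apart, and the lowest corn oil liver stood above the highest furan liver by more than either group's range. The difference was -1.20 ± 0.12 (SE, n = 4 and 4; limma, adjusted p = 4.35e-05), with a 95% confidence interval from -1.47 to -0.94. It was -1.04 on slide 1 alone and -1.36 on slide 2 alone, where limma gave adjusted p values of 0.00472 and 0.00464.

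The 250 bases before the Pck1 start site, from RefSeq on GRCm38.p6 (chr2:173152823-173153072, plus strand), are shown because they hold a match to the cyclic AMP response element TNACGTCA, in capitals, 93 to 86 bases before the start.
Pck1: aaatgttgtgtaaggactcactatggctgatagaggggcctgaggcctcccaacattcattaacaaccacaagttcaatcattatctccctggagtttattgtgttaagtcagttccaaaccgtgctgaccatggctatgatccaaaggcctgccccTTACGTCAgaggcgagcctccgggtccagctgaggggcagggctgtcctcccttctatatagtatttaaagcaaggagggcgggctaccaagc
This element was searched on both strands, and 2.52% of the 32851 RefSeq windows of 250 bases hold it. Of the windows of the 8 genes, 12 in all, this was the only one with it. A match describes the letters and is not evidence that the site was bound.

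Pklr codes for the pyruvate kinase of liver and red blood cells, which makes pyruvate in the last step of glycolysis. In corn oil livers 2, 3, 4 and 6 its log2 ratios at 18 h were 0.84, 1.02, 1.01 and 1.48. In furan livers 41 to 44 they were 0.16, -0.35, -0.09 and -0.25. All furan livers were below all corn oil livers, with furan liver 41 the nearest to them. The difference was -1.22 ± 0.15 (SE, n = 4 and 4; limma, adjusted p = 0.000130), with a 95% confidence interval from -1.55 to -0.89.

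Most red cell markers differed in the same direction as Pklr at 18 h. Of 5 erythroid markers measured, 4 were lower and none higher, where 24.1% of all genes with a symbol were lower. Hba-a1 (an alpha globin) was at -1.01 ± 0.14 and Hbb-bs (a beta globin) at -1.06 ± 0.13. The marker that did not pass, Alas2, had the other sign, at 0.22 ± 0.09 (limma, adjusted p = 0.0620). The mean log2 ratio of the erythroid list ran from -0.10 to 0.10 in corn oil livers and from -0.68 to -0.51 in furan livers, and all 5 markers were above background on every 18 h array. From 18 h to 3 weeks in formalin Hbb-bs and Car1 rose and Hba-a1 and Alas2 fell, with a list median of 0.20, while Pklr fell. The part of red cells in the Pklr difference was not tested.

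2 RefSeq start sites of Pklr were in the sequence table, and the one used in liver is shown (GRCm38.p6, chr3:89136373-89136622, plus strand). Its capitals mark, 170 to 154 bases before the start, the motifs CACG and CGTG with 9 bases between them, the layout of the carbohydrate response element, and a TATA box (TATAAA) 31 to 26 bases before the start.
Pklr: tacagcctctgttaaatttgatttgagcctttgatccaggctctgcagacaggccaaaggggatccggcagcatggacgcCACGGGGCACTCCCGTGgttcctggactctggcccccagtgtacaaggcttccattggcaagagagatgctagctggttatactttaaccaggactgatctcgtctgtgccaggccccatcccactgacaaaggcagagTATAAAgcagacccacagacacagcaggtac
The pair with that spacing occurs in 0.219% of all windows and the TATA box in 12.4%, both counted on both strands.

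Pfkl codes for the liver subunit of phosphofructokinase, the committed step of glycolysis. Its log2 ratios at 18 h were 0.62, 0.52, 0.59 and 0.55 in corn oil livers 2, 3, 4 and 6. They were 0.05, 0.15, -0.03 and 0.19 in furan livers 41 to 44. The corn oil livers lay within a narrow band, above every furan liver. The difference was -0.48 ± 0.08 (SE, n = 4 and 4; limma, adjusted p = 0.00109). With each array only centred on its median and no loess it was -0.12 and did not pass (limma, adjusted p = 0.483), so the call was made with loess and not without it.

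**Figure D1:**
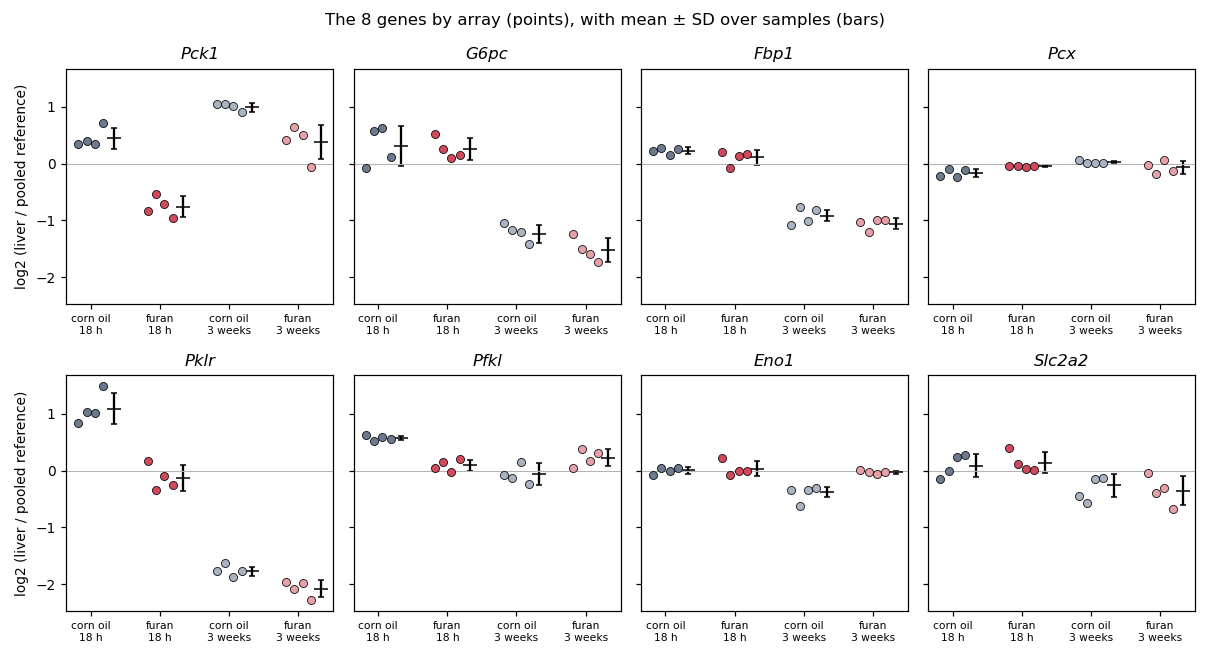
Log2 ratio of liver over the pooled reference for each of the 8 genes (vertical axis) in the 4 groups (horizontal axis). Each point is 1 array, arrays 2.1 and 2.2 included, and the bars give mean ± SD over samples. At 18 h the furan points of Pck1, Pklr and Pfkl lie below all corn oil points, and at 3 weeks all values of G6pc, Fbp1 and Pklr are -0.76 or lower.

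Fbp1 and G6pc carry out the last steps of glucose synthesis, and neither passed the furan test at 18 h. The log2 ratios of Fbp1 were 0.21, 0.28, 0.15 and 0.26 in corn oil livers and 0.20, -0.08, 0.14 and 0.17 in furan livers. Those of G6pc were -0.08, 0.58, 0.63 and 0.12 in corn oil livers and 0.53, 0.25, 0.10 and 0.14 in furan livers. Both genes' groups overlapped, and the corn oil livers spread widely for G6pc (SD 0.35, n = 4). The differences were -0.12 ± 0.09 for Fbp1 (limma, adjusted p = 0.294) and -0.05 ± 0.10 for G6pc (limma, adjusted p = 0.685). The 95% confidence interval for G6pc ran from -0.28 to 0.17, so a fall of the size seen for Pck1 lies outside it under this normalization.

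The G6pc promoter is shown beside that of Pck1, since fasting hormones and insulin act on both genes. In its 250 bases before the start (RefSeq, GRCm38.p6, chr11:101367466-101367715, plus strand) capitals mark the core of an insulin response sequence, TGTTTTG, 174 to 168 bases before the start, and TATAAA, 29 to 24 bases before it.
G6pc: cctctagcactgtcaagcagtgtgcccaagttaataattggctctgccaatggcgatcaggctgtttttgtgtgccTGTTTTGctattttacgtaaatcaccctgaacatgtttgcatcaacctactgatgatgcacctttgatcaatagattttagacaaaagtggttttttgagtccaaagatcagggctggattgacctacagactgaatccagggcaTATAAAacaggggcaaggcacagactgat
TGTTTTG occurs on either strand in 5.56% of all windows. TNACGTCA has no exact match in this one, though the window holds the near match ttacgtaa. Whether any of these motifs has a part in the furan differences was not tested.

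Pcx codes for the mitochondrial enzyme that makes oxaloacetate from pyruvate. Its log2 ratios at 18 h were -0.22, -0.10, -0.23 and -0.12 in corn oil livers and -0.05, -0.04, -0.07 and -0.03 in furan livers. All furan livers were above all corn oil livers; of all tested probes, 39.2% had groups that did not overlap, in one direction or the other. The difference was small, 0.12 ± 0.08, and did not pass (limma, adjusted p = 0.228). In the authors' deposited table it was 0.20 and passed (limma, adjusted p = 0.0334).

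Eno1 and Slc2a2 showed the smallest furan differences at 18 h beside G6pc. Eno1 log2 ratios were -0.08, 0.05, -0.01 and 0.05 in corn oil livers and 0.22, -0.09, -0.01 and -0.01 in furan livers, a difference of 0.02 ± 0.09 (limma, adjusted p = 0.839). Slc2a2 log2 ratios were -0.16, -0.02, 0.23 and 0.27 in corn oil livers and 0.40, 0.11, 0.02 and 0.00 in furan livers, a difference of 0.05 ± 0.12 (limma, adjusted p = 0.742). Both genes' groups overlapped. For both, furan liver 41 held the highest value of the 8 livers.

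Eno1 has a near-identical copy in the mouse genome, Eno1b, with 2 probes on the array, so signal of the copies may not be separable. The probe of Eno1 and the first Eno1b probe had similar ratios, and that Eno1b probe differed by 0.10 ± 0.09 at 18 h (limma, adjusted p = 0.388). The second Eno1b probe gave 0.73, 0.54, 0.80 and 0.84 in corn oil livers and -0.10, -0.41, -0.23 and -0.21 in furan livers. These groups did not overlap, and that probe fell by 0.97 ± 0.10 on the log2 scale (limma, adjusted p = 4.75e-05). The 2 probes named for Eno1b therefore gave different answers, and only the Eno1 probe is counted among the 8 genes.

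None of the 8 genes passed the furan test at 3 weeks in formalin, where 0.118% of all tested probes did (35 of 29690, with 4102 at an unadjusted p under 0.05). Pck1, Pklr and Eno1 were the genes whose groups did not overlap, against 13.4% of all tested probes. For Pck1 the values were 1.05 and 1.06 on arrays 2.1 and 2.2 of corn oil liver 2, 1.01 in liver 4 and 0.90 in liver 6, against 0.42, 0.65, 0.51 and -0.06 in furan livers 41 to 44. Furan liver 44 was the lowest and set much of the furan group's spread. The Pck1 difference was -0.61 ± 0.16 (SE, n = 3 and 4; limma, adjusted p = 0.173), with a 95% confidence interval from -0.97 to -0.25 that is not adjusted for the number of probes. In a fit of all 15 samples, which shares 1 estimate of the spread, the same difference passed (limma, adjusted p = 0.0358), and over the alternatives at 3 weeks its adjusted p ran from 0.0358 to 0.669.

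Pklr at 3 weeks stood at -1.77 and -1.62 on arrays 2.1 and 2.2, -1.87 in corn oil liver 4 and -1.76 in corn oil liver 6. Furan livers 41 to 44 stood at -1.96, -2.09, -1.98 and -2.28. The furan livers were lower without overlap, by a small step: the difference was -0.30 ± 0.14 (limma, adjusted p = 0.376). Eno1 stood at -0.34 and -0.63 on arrays 2.1 and 2.2 and at -0.34 and -0.31 in corn oil livers 4 and 6, against 0.00, -0.03, -0.07 and -0.03 in the furan livers. The furan livers were higher here, with a difference of 0.35 ± 0.13 that did not pass (limma, adjusted p = 0.266). Under median centring without loess the Eno1 difference was 0.83 and passed (limma, adjusted p = 0.00595).

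The other 5 genes overlapped between dose groups at 3 weeks. Pfkl stood at -0.08 and -0.14 on arrays 2.1 and 2.2 and at 0.16 and -0.23 in corn oil livers 4 and 6, against 0.04, 0.37, 0.17 and 0.31 in furan livers, a difference of 0.29 ± 0.15 (limma, adjusted p = 0.432). G6pc differed by -0.28 ± 0.14 (limma, adjusted p = 0.410). Fbp1, Pcx and Slc2a2 differed by -0.14 ± 0.13, -0.09 ± 0.13 and -0.09 ± 0.17. A gene that misses the threshold at 3 weeks may still have changed, since the median standard error over all tested probes was 0.16 at 3 weeks against 0.10 at 18 h.

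**Figure D2:**
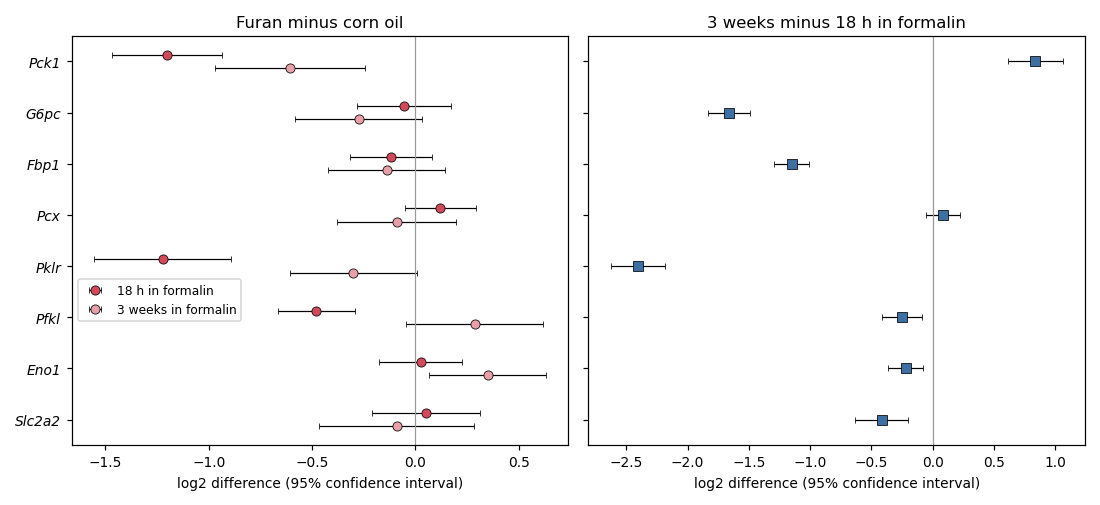
Log2 differences with 95% confidence intervals for the 8 genes, furan minus corn oil at each time (left) and 3 weeks minus 18 h over both dose groups (right). Pck1 is below 0 at both times on the left, -1.20 at 18 h and -0.61 at 3 weeks, while Pfkl is at -0.48 and 0.29. The intervals are not adjusted for the number of probes.

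The furan difference itself differed between the times for Pklr and Pfkl. For Pklr the 18 h difference was lower than the 3-week difference by 0.92 on the log2 scale, that is -0.92 ± 0.21 (limma interaction over 15 samples, adjusted p = 0.0100). For Pfkl the interaction was -0.77 ± 0.16 (limma, adjusted p = 0.00610), from -0.48 at 18 h to 0.29 at 3 weeks. Of all tested probes 12.8% passed this test, 7.82% with the 18 h difference the lower one, beside 2 of the 8 genes. Pck1 did not pass, at -0.59 ± 0.21 (limma, adjusted p = 0.0729), and without furan liver 44 at 3 weeks its interaction was -0.73 and passed (limma, adjusted p = 0.0162). Eno1 did not pass either, at -0.32 ± 0.14 (limma, adjusted p = 0.128). Under median centring without loess Pklr passed (limma, adjusted p = 0.0473) and Pfkl did not (limma, adjusted p = 0.0765).

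Between 18 h and 3 weeks in formalin 7 of the 8 genes differed. Over both dose groups Pklr was 5.29-fold lower at 3 weeks than at 18 h, G6pc 3.17-fold lower and Fbp1 2.22-fold lower relative to the pool, and Pck1 was 1.79-fold higher. In all, 6 of the 8 genes fell and 1 rose, against 74.2% of all tested probes passing, 36.9% lower and 37.3% higher. With median centring and no loess, 24.7% of the probes that passed were higher and the others lower, and the brightest 25% of probes had a median time difference of -0.60, against 0.01 with loess. For G6pc, Fbp1 and Pklr the 3-week samples lay below all 18 h samples, and of all tested probes 35.3% did not overlap between the times. These comparisons hold the number of sections and the share of probes above background together with the time.

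The G6pc log2 ratios at 3 weeks were -1.05 and -1.17 on arrays 2.1 and 2.2, -1.20 in corn oil liver 4, -1.42 in corn oil liver 6 and -1.24, -1.50, -1.60 and -1.73 in furan livers 41 to 44. The lowest 18 h sample was at -0.08, so a wide gap lay between the times. The difference was -1.66 ± 0.08 (limma, adjusted p = 1.67e-11). Fbp1 gave -1.08, -0.76, -1.01 and -0.81 on the corn oil arrays and -1.02, -1.21, -0.99 and -1.0 in the furan livers. Its lowest 18 h sample was at -0.08 too. The Fbp1 difference was -1.15 ± 0.07 (limma, adjusted p = 1.59e-10). It was -1.14 in corn oil livers and -1.16 in furan livers.

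Pklr fell by 2.40 ± 0.10 on the log2 scale between the times (limma, adjusted p = 4.03e-12). The difference was -2.86 in corn oil livers and -1.94 in furan livers. Slc2a2 fell by 0.42 ± 0.10 (limma, adjusted p = 0.00149), from 3-week values of -0.44 and -0.57 on arrays 2.1 and 2.2, -0.16 and -0.13 in corn oil livers 4 and 6, and -0.05, -0.40, -0.31 and -0.67 in furan livers. Those values overlapped with the 18 h values. Pfkl fell by 0.25 ± 0.08 (limma, adjusted p = 0.00904) and Eno1 by 0.22 ± 0.07 (limma, adjusted p = 0.00770). In corn oil livers the times did not overlap, with differences of -0.63 for Pfkl and -0.38 for Eno1, and in furan livers they did, at 0.13 and -0.06. The difference between dose groups in this step is the interaction given above, which Pklr and Pfkl passed and Slc2a2 and Eno1 did not.

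Pck1 was the only one of the 8 that rose with time, by 0.84 ± 0.10 (limma, adjusted p = 1.76e-06). The rise was 0.54 in corn oil livers and 1.14 in furan livers, and within each dose group the times did not overlap. This was not particular to Pck1, since in corn oil livers only Slc2a2 of the 8 overlapped between the times. The share of all probes without overlap within a single dose group is not given here. Pcx did not pass, at 0.08 ± 0.06 (limma, adjusted p = 0.250); its 3-week values were 0.07, 0.02, 0.01 and 0.02 on the corn oil arrays and -0.02, -0.19, 0.06 and -0.13 in furan livers. The Pcx sign turned under median centring and with Agilent's own log ratio. The 7 other genes kept the sign of their time difference under all alternatives tried, but not its size. Median centring without loess gave 0.42 for Pck1, -0.95 for Pfkl and -1.16 for Slc2a2. Agilent's log ratio gave -0.41 for Pfkl, and no background subtraction gave -0.15 for Eno1.

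The order of the groups differed from gene to gene. Pklr was highest in corn oil livers at 18 h (mean 1.09), then furan at 18 h (-0.13), corn oil at 3 weeks (-1.78) and furan at 3 weeks (-2.08). Neighbouring groups did not overlap, but the dose groups at 3 weeks did not pass the furan test (limma, adjusted p = 0.376). Of all tested probes, the dose groups did not overlap in 39.2% at 18 h and 13.4% at 3 weeks. Pck1 was highest in corn oil livers at 3 weeks (mean 0.99), then in corn oil livers at 18 h (0.45) and furan livers at 3 weeks (0.38), which overlapped, and lowest in furan livers at 18 h (-0.76). G6pc and Fbp1 had 2 levels, the higher at 18 h and the lower at 3 weeks, and within each time the dose groups overlapped. Time in formalin and number of sections cannot be told apart here. Eno1 had 3 overlapping groups and corn oil at 3 weeks below them, though its furan test at 3 weeks did not pass either. Pfkl had corn oil at 18 h above 3 overlapping groups, and Slc2a2 had no neighbouring groups without overlap.

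The other genes of the pathway were taken from 4 lists of 89 genes, of which 80 were measured, each by its brightest tested probe. At 18 h 26 of the 80 were higher in furan livers, 19 lower and 35 did not pass. That is 56.2% passing, beside 51.2% of the 13052 genes with a symbol (27.1% higher, 24.1% lower). Their median difference was 0.09, beside 0.02 over all genes with a symbol. At 3 weeks 0 of the 80 passed, beside 0.146% of all genes. For the difference between the times 7 were higher and 5 lower, 15.0% of the 80 beside 13.5% of all genes. Between the times 22 rose and 43 fell with 3 weeks in formalin, 81.2% beside 75.8% of all genes (38.7% higher, 37.1% lower).

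Among the other glycolytic and gluconeogenic steps at 18 h, 7 of 27 were higher, 6 lower and 14 did not pass. The genes with the smallest p were Gapdh at -1.0 ± 0.10, Pgk1 at -0.77 ± 0.09 and Tpi1 at -0.68 ± 0.09, all enzymes of the triose phosphate steps, and Gpd1 at 0.80 ± 0.11. Gpd1 links triose phosphate to glycerol phosphate. For each of these 4 genes the dose groups did not overlap, as for 39.2% of all tested probes. Pgam1, Ldhb, G6pc3, Slc37a4 and Mdh2 were among the others that were higher, while Eno2, Got2 and Gpt were lower. Slc37a4, the carrier that feeds glucose-6-phosphate to the phosphatase coded by G6pc, differed by 0.49 (limma, adjusted p = 0.00873).

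Of the genes of glycogen and hexose phosphate branches 7 of 16 were higher and 3 lower at 18 h. Gbe1, the glycogen branching enzyme, was higher by 0.84 ± 0.11. Ppp1r3c, which targets a phosphatase to glycogen, is counted among the 7. It was well above background on 0 of the 4 corn oil arrays and 4 of the 4 furan arrays at 18 h, and on 0 arrays at 3 weeks. It was thus tested only through the group where it was high, so neither its test nor a fold is given. Gys2, the liver glycogen synthase, was lower at -0.82 ± 0.17. The list thus held rises and falls among enzymes that build glycogen. Pygl, the liver phosphorylase that breaks it down, was higher by 0.27 (limma, adjusted p = 0.0240).

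Among regulators 8 of 27 were higher, 6 lower and 13 did not pass at 18 h. Hnf4a, a transcription factor that maintains hepatocyte genes, was higher by 0.87 ± 0.09, from -0.58 ± 0.08 in corn oil livers to 0.29 ± 0.08 in furan livers (SD, n = 4). Sik1, a cyclic AMP-induced kinase that restrains glucose synthesis genes, was higher by 0.99 ± 0.11 and Cebpb by 0.91 ± 0.10. Foxo1, a factor that insulin inactivates and that drives G6pc and Pck1, was lower at -1.22 ± 0.13 on its brightest probe, while its other probe was at -0.00 ± 0.08. Ppargc1a, a coactivator of glucose synthesis genes, was lower at -0.65 (limma, adjusted p = 0.00506), as were Gcgr (the glucagon receptor), Insr (the insulin receptor), Mlx and Tat. Crtc2, Irs1, Pfkfb3 and Pfkfb4 were among the 8 that were higher, at 0.34, 0.57, 0.44 and 0.38. Mlxipl, which codes for the carbohydrate response factor ChREBP, was at -0.06 and did not pass.

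Igfbp1, a liver gene that insulin suppresses, had the largest difference of these regulators at 18 h, 1.38 ± 0.33 (limma, adjusted p = 0.00611). At 3 weeks it was 0.95 ± 0.26 and did not pass (limma, adjusted p = 0.175), although the dose groups did not overlap at either time. Of all tested probes 39.2% did not overlap at 18 h and 13.4% at 3 weeks. Pdk4, a kinase that shuts off pyruvate oxidation, was also among the regulators named at 3 weeks. It was well above background on 0 of the 4 corn oil arrays and 3 of the 4 furan arrays there. At 18 h it was so on 1 of the 4 corn oil arrays and 4 of the 4 furan arrays. It was thus tested only through the furan groups, its corn oil level is only a bound, and neither its test nor a fold is given. Irs2, an insulin receptor substrate, was at -0.50 ± 0.13 at 3 weeks and did not pass (limma, adjusted p = 0.168). It passed in the authors' deposited values and in the fit of all 15 samples.

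Of the carriers 4 of 10 were higher, 4 lower and 2 did not pass at 18 h. Mpc1 and Mpc2, which form the mitochondrial pyruvate carrier, were higher by 0.51 ± 0.09 and 0.36 on their brightest probes. A second Mpc1 probe was at 0.11 ± 0.08 and did not pass (limma, adjusted p = 0.273). Slc25a10 (the dicarboxylate carrier), Slc25a1 (the citrate carrier) and Slc16a7 (a monocarboxylate carrier) were lower at -0.63 ± 0.08, -0.58 ± 0.08 and -0.58 ± 0.11. With median centring and no loess the falls of Pgk1, Tpi1, Gys2, Slc25a10, Slc25a1 and Slc16a7 kept their sign but did not pass, at -0.28, -0.16, -0.30, -0.23, -0.05 and -0.10. The rises of Gpd1, Gbe1, Hnf4a, Sik1, Cebpb and Mpc1 and the falls of Gapdh and Foxo1 did pass under that setting, with Gapdh at -0.47 and Foxo1 at -0.75.

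The remaining genes with the smallest p at 3 weeks also did not pass. They were Mdh2 at 0.29, G6pc3 at 0.28 and Got2 at -0.31 among the steps, Ppp1r3g at -1.03, Tkfc at 0.30 and Gbe1 at 0.29 among the branches, and Slc16a7 at -0.46, Slc2a5 at -0.37 and Slc25a1 at 0.25 among the carriers. Their adjusted p ran from 0.193 for Ppp1r3g to 0.456 for Slc25a1 (limma). Ppp1r3g, which targets a phosphatase to glycogen after feeding, had wide groups that overlapped, with an SD of 0.68 in 3 corn oil samples. Leaving out 1 sample moved Ppp1r3g to -0.66 (without corn oil liver 6), Tkfc to 0.18 (without corn oil liver 4) and Got2 to -0.19 (without corn oil liver 2 or furan liver 44). With median centring and no loess, Mdh2, G6pc3, Ppp1r3g, Gbe1, Tkfc, Igfbp1 and Slc25a1 passed at 3 weeks and Got2 turned sign.

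**Figure D3:**
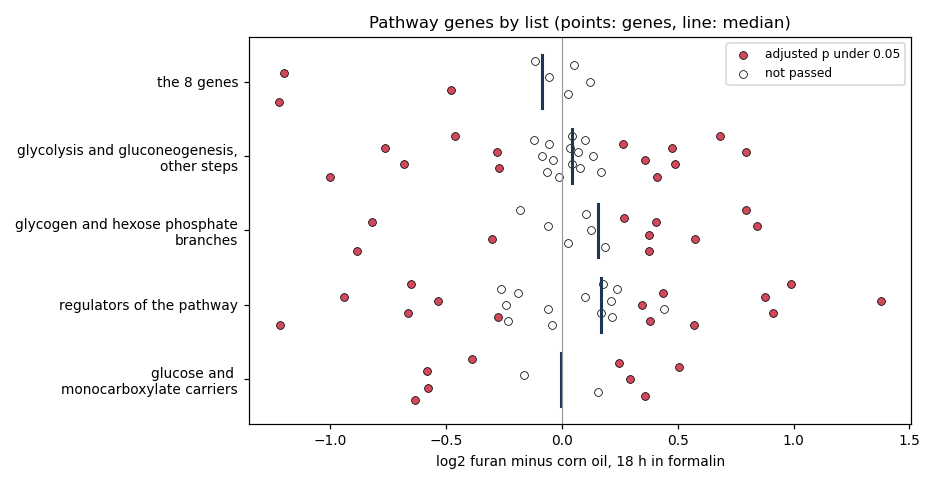
Log2 difference, furan minus corn oil at 18 h (horizontal axis), for the 8 genes and the 4 other pathway lists (rows). Each point is 1 gene by its brightest tested probe, filled where limma's adjusted p is under 0.05, and the vertical bar is the list's median. All lists beside the 8 genes hold filled points on both sides of 0.

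Probes of 1 gene often disagreed, which matters here because each of the 8 genes had 1 probe. Gapdh had 7 tested probes, of which 5 were lower and 2 higher at 18 h, the higher ones at 0.54 and 0.63. Tpi1 had 2, at -0.68 and 0.67, both passing. Gys2 had a second probe at 0.13 that did not pass. Over all genes with a symbol, 3018 had 2 or more tested probes, and 1046 of these had 2 or more probes passing at 18 h. In 468 of the 1046, which is 44.7%, at least 1 probe was higher and at least 1 lower. For the time in formalin it was 867 of 1898 genes, 45.7%. Probes of 1 symbol can read different transcripts or copies, and the part of probe position or RNA breakage was not tested.

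The normalization of the arrays set the furan sign of G6pc and Fbp1 at 18 h and the call of 6 of the 8 genes. Of the 8, 7 lay in the brightest 25% of tested probes and Pfkl in the next 25%. Loess sets the bright probes' ratios to centre near 0 on each array: the median 18 h difference of the brightest 25% was -0.03 with loess and 0.48 with median centring alone. With median centring, 7 of the 8 genes passed. Pck1 and Pklr still fell, by 0.69 and 0.72, while G6pc was at 0.50, Fbp1 at 0.43, Pcx at 0.67, Eno1 at 0.57 and Slc2a2 at 0.55, all passing as higher. Pck1 and Pklr passed as lower under each of the 19 alternatives tried at 18 h. The differences ran from -1.36 to -0.69 for Pck1 and from -1.35 to -0.72 for Pklr.

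**Figure D4:**
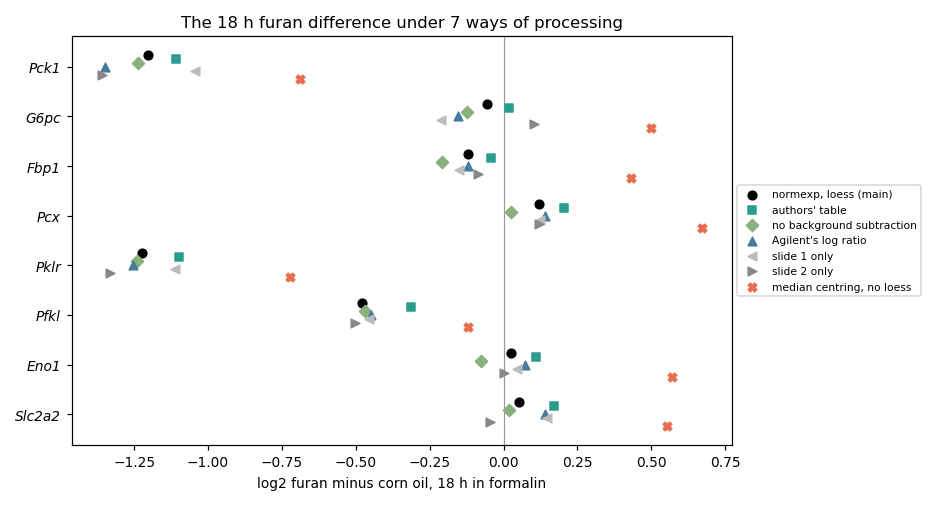
Log2 difference, furan minus corn oil at 18 h (horizontal axis), for each of the 8 genes (rows) under 7 ways of processing (symbols). Pck1 and Pklr lie at -0.69 or lower under all 7, while median centring without loess moves G6pc, Fbp1, Pcx, Eno1 and Slc2a2 to between 0.43 and 0.67.

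Hepatocyte genes other than these enzymes also differed at 18 h. Of all genes with a symbol 27.1% were higher and 24.1% lower, and the lists below hold few genes each. Of 8 hepatocyte markers 5 fell with furan and 0 rose, with Alb (albumin) at -0.72 ± 0.10 and Ttr (transthyretin) at -0.90 ± 0.08, and the list's mean log2 ratio ran from 0.39 to 0.56 in corn oil livers and from -0.05 to 0.13 in furan livers. Of 8 markers of periportal hepatocytes, where glucose synthesis is concentrated, 2 rose and 2 fell, and the list's mean ran from 0.04 to 0.20 and from 0.00 to 0.04. Of 9 markers of pericentral hepatocytes, where glycolysis is concentrated, 6 fell and 0 rose, with Cyp2e1, an enzyme that oxidises furan, at -0.52 ± 0.10, and the means ran from 0.35 to 0.60 and from -0.08 to 0.07. Among other cells, 3 of 8 Kupffer cell markers, 4 of 7 endothelial, 4 of 7 stellate, 2 of 5 leukocyte and 1 of 2 cholangiocyte markers fell, and 1, 1, 1, 0 and 0 rose. At 3 weeks no marker passed. The part of these shifts in the Pck1, Pklr and Pfkl differences was not tested.

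For each of the 8 genes, the gene with the most similar pattern was found by Pearson correlation over the 15 samples among 13035 genes with a symbol. Pck1 was closest to Tat, a tyrosine breakdown enzyme induced by glucocorticoids and cyclic AMP (r = 0.96). Tat differed by -0.94 ± 0.13 with furan at 18 h, which its choice by correlation already favours. Pklr was closest to Hgfac (r = 0.99), a liver-secreted protease, which differed by -1.08 ± 0.10 at 18 h. Pfkl was closest to Cndp2 (r = 0.91), a dipeptidase at -0.54 ± 0.08 at 18 h. For G6pc it was Slc35c2 (r = 0.99), for Fbp1 Cnnm3 (r = 0.99), for Pcx Tmem183a (r = 0.80), for Eno1 its copy Eno1b (r = 0.93) and for Slc2a2 Birc2 (r = 0.93). These correlations describe 15 samples in which the time in formalin is a large part of the spread, and they carry no test.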

How the data were processed

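RNA from formalin-fixed mouse liver was hybridised to Agilent SurePrint G3 8x60K arrays with a pooled reference. Per the file headers the authors extracted spots with Feature Extraction 11.0.1.1, and the deposited scanner files hold intensity values of both dyes and Agilent's log10 ratio (red over green). The authors' deposited value table holds log2 ratios; its scale and its direction, liver over reference, were settled by setting each column against its array (r from 0.918 to 0.991), and the normalization and centring behind it stay unknown. Its column medians were 0.000797, 0.00330, -0.00510 and 0.00438 for corn oil livers 2, 3, 4 and 6 at 18 h and 0.0247, 0.0204, 0.0163 and 0.0187 for furan livers 41 to 44. At 3 weeks they were -0.00872, -0.00919, -0.00159 and -0.00869 for corn oil arrays 2.1, 2.2, 4 and 6 and -0.00715, -0.00825, -0.00445 and -0.00133 for furan livers.

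Median intensities were background-corrected (normexp, offset 50) and loess-normalized within each array with limma 3.58.1 in R 4.3.3, with control spots at weight 0 and 187 to 308 outlier spots per array left out. Spots of 1 probe were averaged, as were arrays 2.1 and 2.2 (r = 0.923), giving 15 samples from 16 arrays. Probes were tested if well above background on 3 or more arrays of a group. No dyes were swapped, so dye bias is common to all samples. Furan was compared within each time, and the interaction and the time difference over all 15 samples, with slide as a term and Benjamini-Hochberg adjustment over the 29690 probes at 0.05. Accessions were named through RefSeq tables of GRCm38.p6, which gave 27235 of 55681 probes a symbol, while the files name another build.

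In data drawn with known changes for the 29690 probes, 200 of them changed, the fits recovered 97.0%, 93.0%, 55.0% and 99.0% of log2 changes of 1 for furan at 18 h, at 3 weeks, the interaction and time, and 21.0%, 13.0%, 5.00% and 77.0% of changes of 0.5. Of their calls 5.60%, 6.19%, 10.4% and 3.30% were false, so the interaction exceeded the 5% aimed at the most. The draws gave each probe the same normal spread at both times and changed few probes. In the data the median standard error was 0.156 at 3 weeks and 0.101 at 18 h, and 47.2% of probes passed at 18 h. These shares therefore describe the drawn data and may differ for the fits above. The members and the lists were chosen with earlier results of these data known. Named in each list were up to 4 genes with the smallest p at 18 h and up to 3 with the smallest p at 3 weeks, and for each member the gene most correlated with it; other genes were named after their values were seen, and some genes that the rule names are not reported here. Alternatives tried were no background subtraction, Agilent's log ratio, the authors' values, median centring, other filters, 1 probe per gene, no slide term, each slide alone, a trended robust fit, separate arrays 2.1 and 2.2, a fit of all samples, a replicate block and leaving out each sample.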

Additional observations from a re-analysis of the deposited data

Results flagged for a closer look

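In the groups of 4 samples, 2 values of the 8 genes stood apart from the rest of their group by more than Dixon's 95% limit for the gap over the range. Fbp1 in furan liver 42 at 3 weeks was at -1.21 on the log2 scale (0.855). Pck1 in corn oil liver 6 at 18 h was at 0.717 (0.848). Chance gives about 1 such value in 20 groups, and 24 groups were tested.

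The furan difference differed between the times for 2 genes by the interaction test, by -0.922 for Pklr and by -0.765 for Pfkl (18 h minus 3 weeks).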

How the results depend on the processing

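Pck1 and Pklr kept their direction and passed at 18 h under all 19 alternatives tried there, while Pfkl did not pass under median centring. Over the 8 genes, 663 of 704 values kept their direction and their side of the threshold, 2 were weaker, 12 stronger and 27 reversed. Among genes with no call, signs turned as follows. Without background subtraction Eno1 at 18 h was -0.075 and the Fbp1 interaction -0.055. With Agilent's log ratio Pcx at 3 weeks was 0.11, the Fbp1 interaction -0.068 and Pcx over time -0.091. With the authors' values G6pc at 18 h was 0.020. With median centring G6pc and Fbp1 were 0.50 and 0.43 at 18 h, G6pc, Fbp1, Pcx, Slc2a2 and Got2 were 0.11, 0.30, 0.36, 0.15 and 0.036 at 3 weeks, and Pcx over time was -0.0095. On slide 1 alone Slc2a2 at 3 weeks was 0.076, and on slide 2 alone G6pc and Slc2a2 at 18 h were 0.10 and -0.046. The cause was not tested.

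Of the 8 genes, median centring called 7 at 18 h, 1 at 3 weeks and 1 in the interaction, no background subtraction called 4 in the interaction, and the fit of all 15 samples called 1 at 3 weeks. Calls among all probes at 3 weeks were 449 without background subtraction, 0 with Agilent's log ratio (limma; 3564 at an unadjusted p under 0.05), 312 with the authors' values, 2317 with median centring, 130 with the strict filter, 72 with no slide term, 20 with the trended robust fit, 322 with arrays 2.1 and 2.2 separate, 1299 in the fit of all samples, 0 on slide 1 (2192 unadjusted) and 265 on slide 2. At 18 h they were 9125 with the strict filter, 8151 on slide 1 and 7049 on slide 2, and over time 12176 with the strict filter, all from fewer probes or samples. Interaction calls were 2286 with Agilent's log ratio and 2222 with no filter. At 18 h 43.2% of calls were higher, against 55% with the authors' values and 78.6% with median centring, and over time 50.3% against 24.7% with median centring.

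Leaving out 1 sample at a time, the 18 h differences ran from -0.026 to 0.16 for Slc2a2, -0.041 to 0.082 for Eno1 and -0.13 to 0.032 for G6pc, the Fbp1 interaction from -0.032 to 0.073 and Slc2a2 at 3 weeks from -0.21 to 0.054. Calls at 3 weeks ran from 0 (without corn oil liver 6) to 770 (without corn oil liver 4), and 2 to 3 of the 8 genes passed the interaction.

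With the sample number as a replicate block, 21391 probes passed over time and 2699 in the interaction, where Pklr was at -0.94 and Pfkl at -0.78. With group means and slide fitted out, the residuals of same-numbered samples correlated from -0.218 to 0.160, with 1 of 7 pairs over 0.1. With so few samples per group, these correlations cannot settle whether the samples are paired. The samples were therefore not treated as paired, and whether a shared number is a shared animal is not known.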
